A study of Mus musculus with 15 samples.

Results

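Cells of a mouse line that received the fusion RUNX1-ETO first and the receptor variant CSF3R-T618I second (RUNX1-ETO_FIRST) were compared, across genes, with cells of the same line that carry CSF3R-T618I alone (CSF3R_ONLY). The groups compared hold 6 of the 15 libraries of the series, 3 in each group, chosen by the column labels of the count table. The line is named HoxB in the labels, its cell type is given as Blood, and strand-specific mRNA libraries were made from it. Control-vector cells (EMPTY), cells with the fusion alone (RUNX1-ETO_ONLY) and cells with both alleles in the opposite order (CSF3R_FIRST) serve below to place the differences. Their libraries also enter the fit behind the p-values, through the filter, the scaling and the shared estimate of the spread. CSF3R-T618I is therefore carried by both groups compared, and the groups differ in the fusion and also in the order and history of introduction, which cannot be told apart. The labels name no promoter, vector, clone or pool for either allele, and they do not say whether the replicates are separate cultures. The p-values measure the spread between libraries of the same group over all 15 libraries, which may be technical.

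CSF3R is the receptor for granulocyte colony-stimulating factor, the cytokine that drives neutrophil production, and T618I is a change found in chronic neutrophilic leukaemia that lets the receptor signal through JAK kinases and STAT proteins without its ligand. RUNX1-ETO joins the DNA-binding domain of RUNX1, the alpha subunit of core-binding factor, to ETO (RUNX1T1), which recruits corepressors, and it is known from acute myeloid leukaemia with impaired granulocyte maturation. Neutrophils make their granule proteins in a set order. Primary (azurophil) granule proteins such as myeloperoxidase come at the promyelocyte stage, and secondary and tertiary granule proteins such as lactoferrin and the gelatinase Mmp9 come later.

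Total counts were 17942960 to 18138097 in the RUNX1-ETO_FIRST libraries and 17482995 to 17653679 in the CSF3R_ONLY libraries. Values are CPM, each count as a share of the scaled library total, and differences are log2 differences, RUNX1-ETO_FIRST minus CSF3R_ONLY, with their standard error (SE). A gene is called higher or lower where the adjusted p of edgeR's quasi-likelihood test, adjusted by Benjamini and Hochberg over 13123 tested genes, is below 0.05. In RUNX1-ETO_FIRST replicate 1 long transcripts were under-represented (correlation across genes of its deviation with transcript length -0.299), and the CSF3R_ONLY libraries lay between -0.0652 and 0.0343. Without that library 4687 genes were called, against 5196 with it, and 7163 were called when it was left out together with the 3 libraries of the other groups that are likewise poor in long transcripts. Of 3203 genes with transcripts of at most 1970 bases 509 were higher and 487 lower, and of 3199 with at least 4615 bases 626 were higher and 664 lower. Mitochondrial transcripts made up 1.59% to 2.20% of counts in RUNX1-ETO_FIRST and 1.19% to 1.76% in CSF3R_ONLY. The part of the mitochondrial share in the results was not tested. The label Blood was checked on marker genes. The leukocyte gene Ptprc (CD45) was at 151 to 322 CPM and the myeloid granule gene Mpo at 13054 to 25853 CPM over the 6 libraries, whereas the T cell gene Cd3e had 0 counts, and the endothelial gene Cdh5 had 1.

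The genes of the introduced alleles came first. Runx1t1 (chromosome 4, 13743436 to 13893649, plus strand, mm10), the gene of ETO, was at 381, 539 and 564 CPM in the RUNX1-ETO_FIRST libraries and had no counts in the CSF3R_ONLY libraries, so that it was at least 2842-fold higher against a floor of 3 counts per library. Runx1 (chromosome 16, 92601466 to 92826149, minus strand) was at 537, 627 and 669.5 CPM in the RUNX1-ETO_FIRST libraries and 132, 125 and 126 CPM in the CSF3R_ONLY libraries, with no overlap between the groups (log2 2.26, SE 0.0991, adjusted p = 4.88e-11). Csf3r (chromosome 4, 126024550 to 126044440, plus strand) was lower in the cells that carry both alleles, at 416, 401 and 441 against 617, 626 and 622 CPM (log2 -0.57, SE 0.0844, adjusted p = 5.27e-05). Whether the introduced coding sequences are human or mouse is not stated, so these counts may mix the cells' own transcripts with introduced ones. The level of Csf3r therefore does not show how much variant receptor was made.

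Of the 13123 genes, 5196 (39.6%) were called: 2625 (20%) higher and 2571 (19.6%) lower in RUNX1-ETO_FIRST. A difference of at least 2-fold was found in 2066 genes (15.7%), of which 1116 (8.5%) were higher and 950 (7.24%) lower. In 5155 genes (39.3%) the call came with no overlap between the 3 libraries of each group. The median difference of all genes was 0.00, and 80% of genes lay between -0.82 and 0.96. These shares are the background for every count of list members given below. The plot of all tested genes shows called genes over the range of expression levels.

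**Figure D1:**
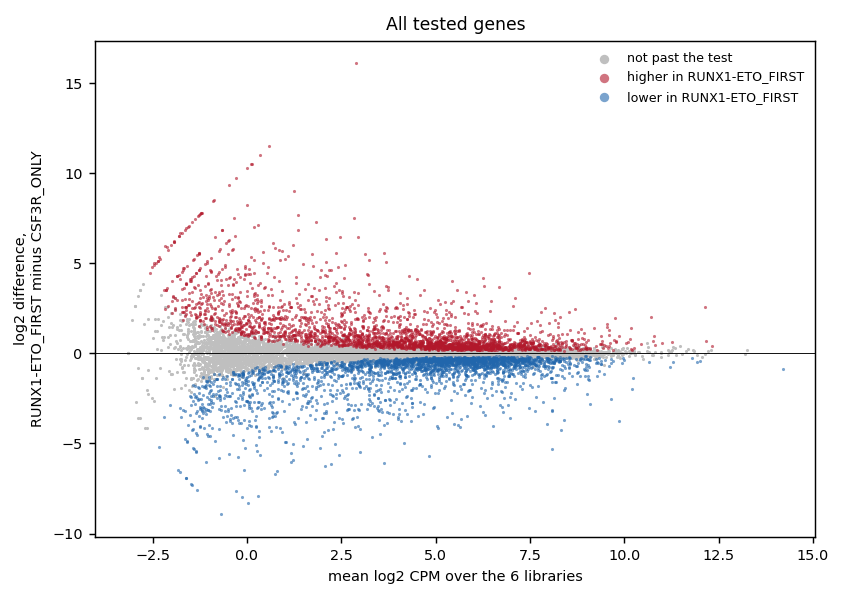
Each point is 1 of 13123 genes, with the mean log2 CPM over the 6 libraries on the horizontal axis and the fitted log2 difference, RUNX1-ETO_FIRST minus CSF3R_ONLY, on the vertical axis. Red marks the 2625 genes called higher, blue the 2571 called lower and grey the rest.

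The genes described first are among the largest falls and rises past the test among genes with a mean log2 CPM over 3 and no overlap of the groups. Genes of lower level that moved further, such as Car1 and Plxnb2, are given with their lists below. Cybb (chromosome X, 9435252 to 9487771, minus strand), the catalytic subunit of the phagocyte NADPH oxidase, was at 1.79, 1.38 and 1.18 CPM in the RUNX1-ETO_FIRST libraries and 102, 96.05 and 98.9 CPM in the CSF3R_ONLY libraries, a 67.8-fold fall (log2 -6.08, SE 0.181, adjusted p = 1.1e-12). Ngp (chromosome 9, 110419747 to 110423012, plus strand), which encodes neutrophilic granule protein, was at 51.5, 36.6 and 40.5 against 1730.0, 1675 and 1715 CPM (log2 -5.31, SE 0.171, adjusted p = 1.89e-12). The absence of overlap was fixed by the choice of genes. S100a8 (chromosome 3, 90668978 to 90670035, plus strand), a subunit of calprotectin, was at 71.9, 61.8 and 55.9 against 1049, 920.3 and 924 CPM (log2 -3.93, SE 0.244, adjusted p = 3.05e-09), and the lactoferrin gene Ltf (chromosome 9, 111019271 to 111042767, plus strand) at 4.15, 2.37 and 2.71 against 47.03, 51.8 and 48.2 CPM (log2 -3.99, SE 0.192, adjusted p = 1.34e-10).

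Prg2 (chromosome 2, 84980461 to 84983632, plus strand), the eosinophil major basic protein, was at 3.42, 2.59 and 3.38 against 98.8, 99.9 and 96.7 CPM (log2 -4.97, SE 0.206, adjusted p = 2.66e-11). Nos2 (chromosome 11, 78920787 to 78960254, plus strand), the inducible nitric oxide synthase, was at 11.1, 13.1 and 12.1 against 201, 206 and 212 CPM (log2 -4.09, SE 0.1503, adjusted p = 7.13e-12), and Thbs1 (chromosome 2, 118111876 to 118127133, plus strand), the matrix protein thrombospondin 1, at 56.1, 86.2 and 78.6 against 1355, 1416 and 1414 CPM (log2 -4.24, SE 0.202, adjusted p = 1.28e-10). The groups did not overlap for any of these genes, which the choice of genes fixed. Clec12a, an inhibitory lectin of myeloid cells, was at 9.54, 7.92 and 6.48 against 141, 143 and 134 CPM (log2 -4.12, SE 0.155, adjusted p = 9.01e-12). Further falls were those of the interferon-inducible membrane genes Ifitm6 (log2 -5.70) and Ifitm3 (log2 -4.01), the semaphorin receptor Plxnc1 (log2 -4.64), the GTPase Rhou (log2 -4.50), the filamin-binding Rflnb (log2 -4.05), the transglutaminase Tgm2 (log2 -3.96) and the sphingomyelin synthase Sgms2 (log2 -3.91).

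The rises of genes above that level included Tpsab1 (chromosome 17, 25343245 to 25345562, minus strand), a mast cell tryptase, which was at 92.4, 79.6 and 79.2 CPM in the RUNX1-ETO_FIRST libraries and 2.22, 1.45 and 1.61 CPM in the CSF3R_ONLY libraries, a 47.4-fold rise (log2 5.57, SE 0.157, adjusted p = 6.42e-13). The neighbouring tryptase Tpsb2 (chromosome 17, 25366305 to 25369098, plus strand) was at 979, 723 and 789.7 against 37.2, 38.1 and 38.1 CPM (log2 4.46, SE 0.148, adjusted p = 2.51e-12). All 3 RUNX1-ETO_FIRST libraries were above all 3 CSF3R_ONLY libraries for both, as the choice of genes required. Because tryptase genes are close paralogs and no source used here says how shared reads were handled, the split between them is less certain.

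Fam20a, a pseudokinase of the secretory pathway, was at 58.2, 53.8 and 58.5 against 1.69, 1.22 and 0.865 CPM (log2 5.49, SE 0.149, adjusted p = 5.29e-13). Ptprf, a receptor tyrosine phosphatase of the LAR type, was at 45.4, 61.1 and 58.8 against 1.4, 1.74 and 1.38 CPM (log2 5.19, SE 0.289, adjusted p = 8.06e-10), and the calmodulin-dependent kinase gene Camk2a at 64.9, 70.5 and 83.6 against 2.74, 2.08 and 1.73 CPM (log2 5.06, SE 0.182, adjusted p = 5.68e-12). The thrombin receptor F2r was at 340.3, 389.6 and 365 against 29.7, 27.9 and 27.97 CPM (log2 3.68, SE 0.111, adjusted p = 1.13e-12). The keratin Krt80 was at 184, 161 and 182 against 10.5, 10.7 and 11.02 CPM (log2 4.03, SE 0.0745, adjusted p = 1.57e-14). These genes were low in every receptor-only library, and the RUNX1-ETO_FIRST libraries lay close together.

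The other large rises were those of the interleukin 10 receptor chain Il10ra (log2 4.40), the galactose-type lectins Mgl2 (log2 4.33) and Clec10a (log2 3.87), the actin-associated Afap1l1 (log2 4.28), the membrane-anchored Mdga1 (log2 4.21), the CD200 receptor family member Cd200r4 (log2 3.73) and Rgs1, a regulator of G protein signalling (log2 3.73). In the plot of these genes by library, the RUNX1-ETO_ONLY and CSF3R_FIRST means lie nearer to RUNX1-ETO_FIRST than to CSF3R_ONLY on the log scale.

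**Figure D2:**
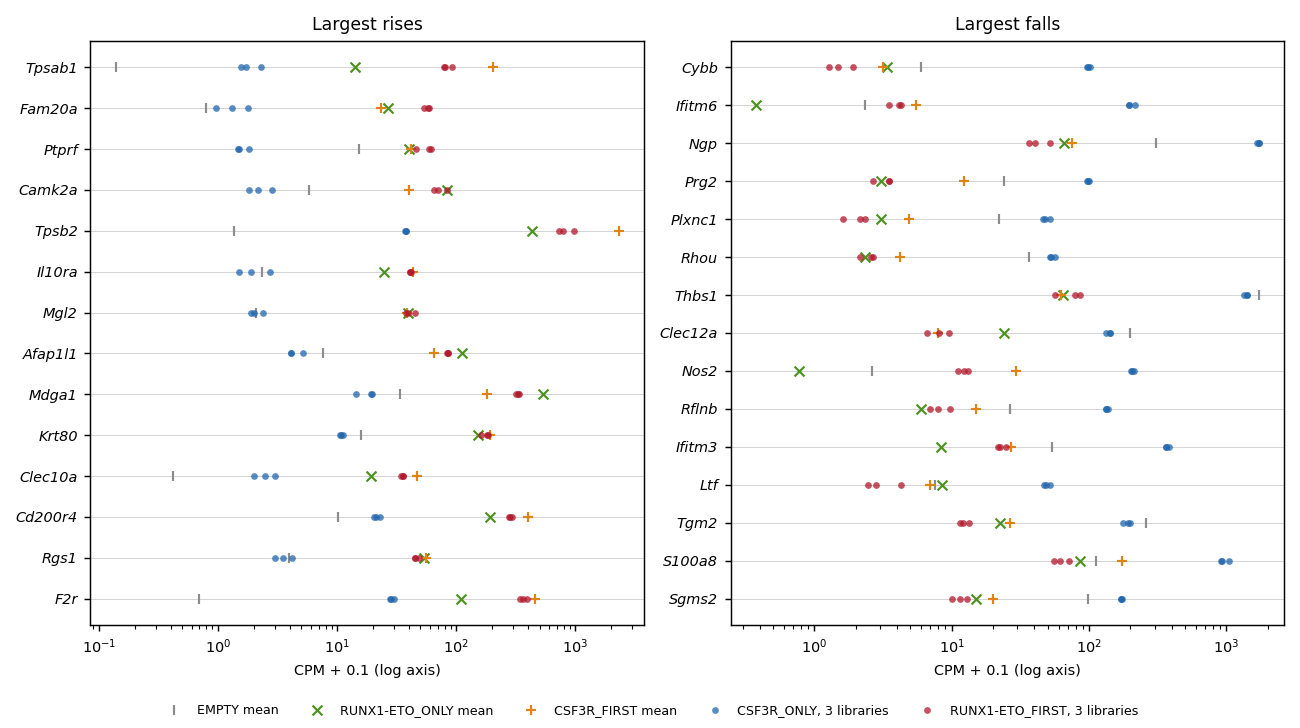
CPM + 0.1 on a log axis for 14 of the largest rises and the 15 largest falls past the test, with 1 dot for each of the 3 libraries of RUNX1-ETO_FIRST (red) and CSF3R_ONLY (blue) and symbols for the means of the other groups. The dots of the groups compared do not overlap for any gene, which the choice of genes fixed, and Ngp and S100a8 show EMPTY between them.

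Promoter sequences were searched for the letters of RUNX, GATA and STAT motifs. RefSeq promoter windows of 300 bases (GRCm38.p6) matched 9785 of the tested genes, with 12468 windows. Both strands were searched for the core of RUNX sites (written TGTGGT), with TGCGGT as its other spelling. GATA sites were searched as AGATAA. STAT sites were searched as TTCNNNGAA. Of all windows 21.3% held the RUNX letters, 6.78% the GATA letters and 6.95% the STAT letters. Among the 864 windows of genes lower by at least 2-fold the shares were 26.0%, 8.91% and 9.14%. Among the 1083 windows of genes higher by at least 2-fold they were 20.5%, 10.2% and 6.65%. Of the genes above, 17 had a window. Shown are the 3 windows of lower genes that held 2 of the 3 motifs, and both windows of higher genes that held any, 5′ to 3′ on the gene's strand with the motif letters on either strand in capitals.
Cybb (chrX:9469275-9469574, minus strand): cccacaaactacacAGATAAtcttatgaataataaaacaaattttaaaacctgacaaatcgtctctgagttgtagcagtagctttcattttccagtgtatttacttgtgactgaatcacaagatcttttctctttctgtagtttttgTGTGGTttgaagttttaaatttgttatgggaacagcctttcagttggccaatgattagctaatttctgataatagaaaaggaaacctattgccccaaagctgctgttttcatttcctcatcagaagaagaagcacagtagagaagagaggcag
Ifitm6 (chr7:141016843-141017142, minus strand): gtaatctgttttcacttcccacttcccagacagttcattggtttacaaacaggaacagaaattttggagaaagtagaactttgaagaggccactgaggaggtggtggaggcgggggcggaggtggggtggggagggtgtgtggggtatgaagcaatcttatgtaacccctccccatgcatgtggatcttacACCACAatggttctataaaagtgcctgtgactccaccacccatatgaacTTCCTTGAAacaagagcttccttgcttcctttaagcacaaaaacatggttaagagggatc
Ltf (chr9:111019042-111019341, plus strand): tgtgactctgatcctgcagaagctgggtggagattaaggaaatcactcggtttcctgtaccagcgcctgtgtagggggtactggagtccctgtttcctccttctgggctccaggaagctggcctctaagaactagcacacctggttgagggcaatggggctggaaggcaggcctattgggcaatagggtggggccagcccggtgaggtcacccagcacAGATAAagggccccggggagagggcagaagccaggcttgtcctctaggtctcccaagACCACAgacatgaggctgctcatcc
F2r (chr13:95618417-95618716, minus strand): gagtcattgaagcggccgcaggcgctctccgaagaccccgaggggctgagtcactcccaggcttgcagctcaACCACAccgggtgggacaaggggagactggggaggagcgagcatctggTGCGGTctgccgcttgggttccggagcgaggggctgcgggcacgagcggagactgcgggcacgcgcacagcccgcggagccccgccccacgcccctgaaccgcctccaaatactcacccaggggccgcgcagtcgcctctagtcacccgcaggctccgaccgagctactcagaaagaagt
Cd200r4 (chr16:44820478-44820777, plus strand): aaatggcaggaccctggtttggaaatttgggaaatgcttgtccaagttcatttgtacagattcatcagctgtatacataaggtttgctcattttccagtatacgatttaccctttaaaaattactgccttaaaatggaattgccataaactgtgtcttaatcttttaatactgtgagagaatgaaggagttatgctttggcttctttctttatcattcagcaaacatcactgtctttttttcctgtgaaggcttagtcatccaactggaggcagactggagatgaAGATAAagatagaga

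The Cybb window holds the GATA and the RUNX letters, both on the gene's strand. The Ifitm6 window holds the RUNX letters on the other strand and a STAT match, and the Ltf window the GATA letters and, on the other strand, the RUNX letters. In F2r the RUNX letters occur on each strand, and Cd200r4 holds the GATA letters near its end. Ngp and S100a8, also among the largest falls, hold none of the 3 motifs in the window searched. The matches describe sequence, and no binding was measured.

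Genes of the later neutrophil granules and of mature neutrophils were lower nearly throughout. Of 38 listed genes 37 were tested, and of these 1 was higher and 34 lower (94.6% called against 39.6% of all genes), with a median of -2.88. Their summed level was 2747 to 3057 CPM in the RUNX1-ETO_FIRST libraries and 12721 to 13272 CPM in the CSF3R_ONLY libraries. In RNA from whole cultures, fewer cells of a type and less RNA per cell cannot be told apart. Beside Cybb and Ngp the largest changes were those of the gelatinase Mmp9, at 1.57, 0.715 and 1.18 against 53.4, 51.5 and 50.00 CPM (log2 -5.48, SE 0.227, adjusted p = 2.66e-11), and the membrane metalloproteinase Mmp25 (log2 -5.10, adjusted p = 6.26e-08). Cxcr2, the receptor for neutrophil chemokines, was the 1 member higher, named here after its values were seen (270.2 CPM in CSF3R_ONLY and 319.8 in RUNX1-ETO_FIRST, adjusted p = 0.0234, but 0.106 without CSF3R_ONLY replicate 3 and 0.0773 without RUNX1-ETO_FIRST replicate 3). The chitinase-like Chil3 (log2 0.07, adjusted p = 0.739) and the histone-modifying Padi4 (log2 0.09, adjusted p = 0.45) did not pass the test.

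The levels in the other groups place this fall. Against EMPTY, 35 of the 37 genes were higher in CSF3R_ONLY and 1 lower (median 2.61), beside 33.1% of all genes called, 19.9% higher and 13.2% lower. In RUNX1-ETO_FIRST against EMPTY 13 were higher and 16 lower (median -0.001), beside 44% called, 23.7% higher and 20.2% lower. These comparisons share libraries with the main one and are not independent of it. Mean Cybb was 5.903 ± 1.76 CPM with empty vectors, 3.27 ± 0.207 with the fusion alone and 3.06 ± 0.238 with the receptor first (SD, n = 3), and mean Ngp in the same order 309.6 ± 60.7, 66.1 ± 5.74 and 74.8 ± 10.98 CPM. In the heat map most of the neutrophil genes are highest in the CSF3R_ONLY libraries.

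**Figure D3:**
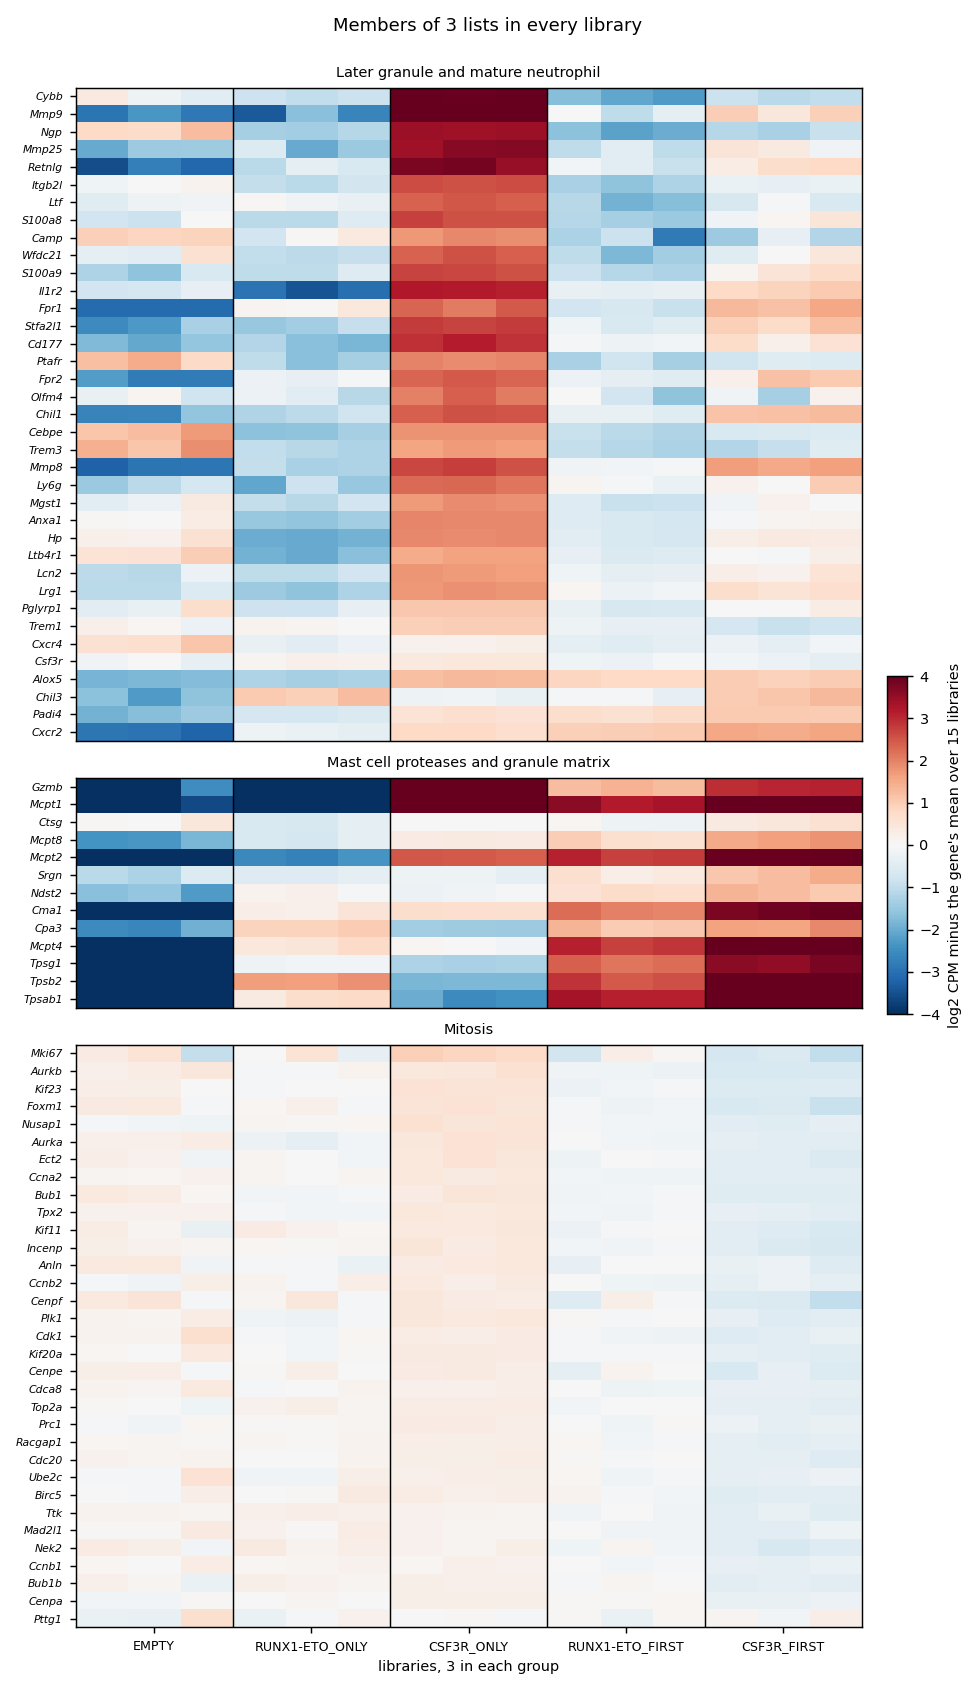
Log2 CPM minus each gene's mean over the 15 libraries, in columns of 3 libraries for each group, for the tested members of 3 lists sorted by their difference (red higher, blue lower). Of the 37 later granule genes 34 were lower in RUNX1-ETO_FIRST than in CSF3R_ONLY, of the 13 mast cell protease genes 9 were higher, and of the 33 mitosis genes 26 were lower by small amounts.

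Primary granule genes were more often lower. Of 12 tested members 4 were higher and 7 lower, with a median of -0.73. By at least 2-fold 1 was higher and 4 were lower. Their summed level was 23961 to 27951 CPM in the RUNX1-ETO_FIRST libraries and 37401 to 37769 CPM in the CSF3R_ONLY libraries. Mpo was at 13054 to 14524 CPM against 25469 to 25853 CPM. Elane, neutrophil elastase, was at 239, 188 and 201 against 1501, 1440.3 and 1393 CPM (log2 -2.79, SE 0.203, adjusted p = 1.94e-08), and the lysozyme gene Lyz2 at 98.4 ± 5.47 against 332 ± 6.11 CPM (SD, n = 3; log2 -1.76, adjusted p = 1.74e-09). The ficolin Fcnb was at 0.617, 0.33 and 0.226 against 6.71, 7.01 and 6.98 CPM (log2 -4.12, adjusted p = 8.74e-08). Cathepsin G, Ctsg, did not pass the test (log2 -0.09, adjusted p = 0.597), although it is stored in the same granules as elastase. Igfbp4 was the largest rise on the list and the only one of at least 2-fold (492 ± 36.2 against 101 ± 2.55 CPM, log2 2.28, adjusted p = 1.13e-12). Its product binds insulin-like growth factors and is not itself a primary granule protein. Of 8 tested genes of the NADPH oxidase, which makes superoxide in phagocytes, 0 were higher and 6 lower. After Cybb came the cytosolic subunit Ncf1, at 236, 241 and 238 against 774, 747 and 775 CPM (log2 -1.68, SE 0.0624, adjusted p = 7.73e-12), the membrane partner Cyba (log2 -0.999, adjusted p = 0.000318) and Ncf4 (log2 -0.97, adjusted p = 1.57e-07), whereas the GTPases Rac1 (log2 0.08, adjusted p = 0.469) and Rac2 (log2 -0.30, adjusted p = 0.0525) did not pass. Rac2 passed without RUNX1-ETO_FIRST replicate 1 (adjusted p = 0.0367).

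S100 and annexin genes, calcium-binding proteins of which some are neutrophil products, had 7 higher and 5 lower of 16. S100a9, the partner of S100a8, was at 93.5 ± 13.2 against 1216 ± 71.6 CPM (log2 -3.70, adjusted p = 3.85e-09), and Anxa1, annexin A1, at 333 ± 21.9 against 1934 ± 22.6 CPM (log2 -2.54, adjusted p = 1.26e-11). Anxa11 (log2 -0.19, adjusted p = 0.0742) and Anxa7 (log2 -0.15, adjusted p = 0.129) did not pass, although Anxa11 passed without RUNX1-ETO_FIRST replicate 1 (adjusted p = 0.0326). With only the groups compared Anxa11 passed as well (adjusted p = 0.0357). Both genes passed with limma-voom and without the 4 libraries poor in long transcripts. The median of the list, 0.15, changed its sign between settings.

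Mast cell genes were mostly higher, with opposing members. Of 13 tested genes for mast cell proteases and granule matrix 9 were higher and 2 lower (median 0.82), and of 32 genes for mast cell and basophil surface proteins and regulators 20 were higher and 6 lower (median 0.98). Beside the tryptases above, Tpsg1, a membrane-anchored tryptase, was at 176, 150.0 and 158 against 14.2, 13.7 and 13.8 CPM (log2 3.54, SE 0.107, adjusted p = 1.13e-12), and the chymase Mcpt4 at 283, 216 and 239 against 34.4, 32.2 and 30.2 CPM (log2 2.93, SE 0.133, adjusted p = 7.63e-11). The summed level of the protease and matrix genes was 21209 to 26854 CPM against 10348 to 10957 CPM, and its part in other results was not tested. The granule protease Gzmb went the other way, at 13.97, 15.3 and 14.2 against 181, 184 and 177 CPM (log2 -3.64, SE 0.235, adjusted p = 4.82e-09), and Mcpt2 did not pass (log2 0.43, adjusted p = 0.117). Mcpt2 passed as higher with DESeq2 (adjusted p = 0.0111) and with only the groups compared (adjusted p = 0.000501). With limma-voom (adjusted p = 2.14e-05) and without the 4 libraries poor in long transcripts (adjusted p = 5.61e-07) it passed too.

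Il13, a cytokine of type 2 immunity, was at 24.9, 18.98 and 25.4 against 0.583, 0.811 and 0.634 CPM (log2 5.08, SE 0.193, adjusted p = 9.76e-12). The interleukin 33 receptor Il1rl1, a surface marker of mast cells, was at 844, 1055 and 1028 against 170.0, 180.4 and 176 CPM (log2 2.48, SE 0.163, adjusted p = 5.69e-09). The eosinophil granule gene Prg3 (log2 -5.61, adjusted p = 1.49e-10) fell beside Prg2, and the IgE receptor chain Fcer1g (log2 -0.36, adjusted p = 0.152) and the tetraspanin Cd63 (log2 0.31, adjusted p = 0.0693) did not pass. With only the groups compared Fcer1g passed as lower (adjusted p = 0.00368) and Cd63 as higher (adjusted p = 0.00279). Both also passed with limma-voom and without the 4 libraries poor in long transcripts, and Cd63 with DESeq2 (adjusted p = 0.0452). Enzymes and transporters of histamine, eicosanoids and serotonin had 12 of 23 higher and 6 lower. By at least 2-fold 10 were higher and 3 lower, and the differences ran from log2 -5.73 to 6.84. Ddc, which makes serotonin and dopamine, was at 9.199, 8.86 and 8.63 against 0.3501, 0.753 and 0.634 CPM (log2 3.92, adjusted p = 9.07e-10), and the amine oxidase Maob at 3.89 ± 0.178 against 0.2705 ± 0.0881 CPM (log2 3.81, adjusted p = 1.59e-06).

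The mast cell genes were raised against EMPTY in both groups. Of the 13 protease and matrix genes 12 were higher and 0 lower in CSF3R_ONLY against EMPTY (median 4.91) and 12 and 0 in RUNX1-ETO_FIRST against EMPTY (median 6.84). Mean Tpsb2 was 1.27 ± 0.515 CPM with empty vectors, 37.8 ± 0.544 with the receptor alone, 435 ± 30.6 with the fusion alone, 830.3 ± 133 with the fusion first and 2321 ± 185 with the receptor first (SD, n = 3). Each neighbour in this order lay beyond the SD of the libraries.

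Monocyte and macrophage genes moved both ways. Of 28 tested members of 35 listed 11 were higher and 14 lower (median -0.54). Saa3, an acute-phase serum amyloid, was at 4.94, 3.58 and 3.89 against 40.02, 41.8 and 38.6 CPM (log2 -3.28, SE 0.152, adjusted p = 9.33e-11). Arg1, the arginase of alternatively activated macrophages, was at 8.75, 8.31 and 7.84 against 0, 0 and 0.173 CPM, a count ratio of 143 (95% counting interval 48.7 to 697), and the fitted value rested on few receptor counts (log2 6.997, or 10.21 without CSF3R_ONLY replicate 3). Ly6c2, a monocyte surface antigen (log2 -0.38, adjusted p = 0.0681), and the proteoglycan Vcan (log2 -0.57, adjusted p = 0.0869) did not pass, although Ly6c2 passed without RUNX1-ETO_FIRST replicate 1 (adjusted p = 0.0371). Both passed as lower with only the groups compared (adjusted p = 0.0107 and 0.0164), with limma-voom and without the 4 libraries poor in long transcripts. Chosen after their values were seen, the macrophage marker Adgre1 (F4/80) was higher (176 against 71.3 CPM), and the growth factor receptor Csf1r was lower (9.30 against 19.2 CPM). The macrophage complement genes C1qa and C1qb had 0 or 1 counts in each group. Of 23 genes of dendritic cells and antigen presentation only 10 were tested, with 5 higher and 1 lower. The invariant chain Cd74 was at 4.43, 3.25 and 3.55 against 0.117, 0.174 and 0.115 CPM (log2 4.72, adjusted p = 1.03e-07), and the class II chain H2-Ab1 at 4.74 ± 0.659 against 0.716 ± 0.191 CPM (log2 2.72, adjusted p = 9.61e-07).

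Stem and progenitor genes were more often higher. Of 29 tested genes 18 were higher and 4 lower (median 1.12), and their summed level was 5664 to 5771 CPM against 3124 to 3233 CPM. Cd34, the progenitor surface marker, was at 861, 801 and 810.3 against 162, 169 and 163 CPM (log2 2.32, SE 0.0726, adjusted p = 1.29e-12). Procr, the endothelial protein C receptor that marks stem cells, was at 4.21, 4.79 and 4.91 against 0.467, 0.753 and 0.577 CPM (log2 2.94, adjusted p = 1.94e-08), and Spink2 had no counts in CSF3R_ONLY and 1.96, 1.43 and 1.07 CPM in RUNX1-ETO_FIRST, at least 8.56-fold higher. Prom1, prominin 1, was the largest fall, at 2.3, 1.65 and 1.24 against 26.2, 29.7 and 32.8 CPM (log2 -4.09, SE 0.173, adjusted p = 3.35e-11). Named after their values were seen, the transcription factor Sox4 (101 against 14.2 CPM), the chromatin protein Hmga2 (120.3 against 15.8 CPM) and Gata2 (1214 against 497 CPM) were higher in RUNX1-ETO_FIRST than in CSF3R_ONLY. Erg (log2 0.02, adjusted p = 0.905) and Myb (log2 -0.23, adjusted p = 0.095), regulators of blood stem cells, did not pass.

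Transcription factors of the granulocyte and monocyte lineages had 12 higher and 9 lower of 29 (median 0.04). Cebpe, which drives the secondary granule programme, was at 43.6, 37.9 and 34.96 against 279, 279 and 283 CPM (log2 -2.85, SE 0.139, adjusted p = 1.57e-10), and Cebpd at 31.6, 28.7 and 26.8 against 111, 125 and 124 CPM (log2 -2.05, SE 0.149, adjusted p = 1.9e-08). Irf8, a factor of monocytes and dendritic cells, was higher at 18.1, 18.6 and 18.9 against 1.05, 0.637 and 1.096 CPM (log2 4.31, SE 0.144, adjusted p = 2.51e-12), as was the Wnt effector Tcf7l2 (log2 4.78, adjusted p = 8.55e-09). Cebpe and Cebpd were thus lower and Irf8 higher in every RUNX1-ETO_FIRST library, while Etv6 (log2 0.04, adjusted p = 0.776) and Nfe2 (log2 -0.19, adjusted p = 0.0683) did not pass.

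Of 11 tested HOX and MEIS genes 3 were higher and 3 lower. Meis1, a HOX cofactor, was at 14.7, 15.9 and 14.4 against 7.18, 5.73 and 6.17 CPM (log2 1.24, adjusted p = 1.08e-07), and Hoxb4 did not pass (log2 -0.19, adjusted p = 0.306). Of 17 genes of the RUNX, core-binding factor and ETO families 4 were higher and 4 lower, among them the Groucho corepressors Tle1 (log2 0.97, adjusted p = 8.67e-08) and Tle3 (log2 -0.89, adjusted p = 0.000112) in opposite directions, and Runx3 (log2 -0.20, adjusted p = 0.0709) did not pass, although it did without RUNX1-ETO_FIRST replicate 3 (adjusted p = 0.0361). Runx3 also passed with only the groups compared (adjusted p = 0.0342), with limma-voom and without the 4 libraries poor in long transcripts.

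Lists taken from earlier descriptions of RUNX1-ETO were read as well. Of 8 tested genes described as raised by it 5 were higher and 2 lower, and of 14 described as lowered by it 4 were higher and 8 lower. The junction protein plakoglobin, Jup, was at 67.4 ± 5.97 against 30.5 ± 0.612 CPM (log2 1.15, adjusted p = 7.63e-09), and the phospholipase Plcg1 at 136 ± 14.1 against 72.8 ± 2.27 CPM (log2 0.90, adjusted p = 0.000764). Rassf2 (log2 -0.79, adjusted p = 0.00015), described as raised, was lower, and the kinase Rps6ka2 (log2 1.88, adjusted p = 7.87e-06), described as lowered, was higher. These lists share genes with those above, among them Cd34, Elane, Lyz2 and Cebpe.

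Erythroid and megakaryocyte genes had 10 of 20 higher and 7 lower. The haemoglobin chain Hbb-bs was at 0.0561, 0 and 0 against 5.13, 5.38 and 4.73 CPM, a count ratio of 273 (95% counting interval 48.6 to 10828) towards CSF3R_ONLY, and carbonic anhydrase 1, Car1, was at 0, 0.055 and 0 against 7.93, 8.97 and 7.38 CPM, a ratio of 435 (77.7 to 17227). Their fitted values rest on 1 count in RUNX1-ETO_FIRST (log2 -7.63, or -9.50 without RUNX1-ETO_FIRST replicate 1, and log2 -8.30, or -10.17 without replicate 2). Itga2b, an integrin of megakaryocytes, did not pass (log2 -0.07, adjusted p = 0.428). Of 26 lymphoid genes 13 were tested, with 5 higher and 3 lower at low levels. Dntt, the terminal transferase of lymphoid progenitors, had no counts in CSF3R_ONLY and 2.19, 1.32 and 1.18 CPM in RUNX1-ETO_FIRST, at least 8.99-fold higher. Of 18 stromal and endothelial genes 7 were tested (4 higher, 1 lower). Pecam1, which blood cells also express, was at 718 ± 8.63 against 333 ± 4.91 CPM (log2 1.11, adjusted p = 8.68e-10), and the smooth muscle actin Acta2 at 4.71 ± 0.736 against 16.4 ± 1.16 CPM (log2 -1.80, adjusted p = 5.36e-07), whereas the collagen gene Col1a1 did not pass (log2 -0.79, adjusted p = 0.181).

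Genes that respond to STAT or ERK signalling were examined next. STAT3 and STAT5 response genes had 14 of 29 higher and 7 lower (median 0.24). The feedback inhibitor Cish was at 141, 148 and 156 against 29.9, 32.7 and 31.9 CPM (log2 2.23, SE 0.0727, adjusted p = 2.07e-12), the cytokine oncostatin M, Osm, at 121, 133 and 129 against 20.5, 20.9 and 22.9 CPM (log2 2.58, SE 0.103, adjusted p = 1.98e-11), and Socs2 at 9.09 ± 1.14 against 1.199 ± 0.442 CPM (log2 2.92, adjusted p = 1.72e-07). These 3 genes, all known STAT5 targets, were above the receptor cells in every library. Of the 7 lower members 4 fell at least 2-fold, the furthest being the transcription factor Cebpd (log2 -2.05, adjusted p = 1.9e-08). Of the 29 genes 20 were higher and 5 lower in CSF3R_ONLY against EMPTY, beside 19.9% and 13.2% of all genes. In RUNX1-ETO_ONLY against EMPTY 18 were higher and 5 lower, beside 20.8% and 18.2%. Cish was at 8.87, 9.17 and 9.235 CPM in EMPTY and 67.3, 61.5 and 58.5 CPM in RUNX1-ETO_ONLY. Genes of the ERK pathway and of the immediate early response, which growth factor signals induce, had 16 higher and 3 lower of 27 (median 0.64). Against EMPTY, 9 of the 27 were higher and 7 lower in CSF3R_ONLY (median 0.03), and 15 and 7 in RUNX1-ETO_ONLY (median 0.60). Egr3 was at 11.8, 14.7 and 19.7 against 3.15, 1.79 and 2.77 CPM (log2 2.58, adjusted p = 3.56e-07), Phlda1 at 17.2 ± 1.91 against 1.86 ± 0.303 CPM (log2 3.21, adjusted p = 4.82e-09) and Fosb at 2.89 ± 0.472 against 0.541 ± 0.221 CPM (log2 2.40, adjusted p = 6.94e-05), and Myc did not pass (log2 0.08, adjusted p = 0.432).

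NF-kB and inflammatory genes had 13 higher and 9 lower of 31 (median 0.04). The chemokines Ccl3 and Ccl4, which attract monocytes and lymphocytes, were at 201, 163 and 184 against 19.2, 16.7 and 15.1 CPM (log2 3.43, SE 0.176, adjusted p = 2.98e-10) and 51.04, 45.9 and 40.3 against 4.03, 2.78 and 5.02 CPM (log2 3.53, SE 0.178, adjusted p = 2.41e-10). Ccl7 was at 12.6, 10.9 and 10.6 against 0.3501, 0.116 and 0 CPM (log2 6.14, adjusted p = 2.87e-08, or 7.46 without CSF3R_ONLY replicate 1). Tlr2, the receptor for bacterial lipopeptides, fell, at 4.99, 4.18 and 4.34 against 47.3, 45.5 and 47.1 CPM (log2 -3.37, SE 0.1395, adjusted p = 2.66e-11), whereas the lipopolysaccharide receptor Tlr4 (log2 0.01, adjusted p = 0.954) and the subunit Nfkb1 (log2 0.04, adjusted p = 0.676) did not pass.

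Interferon response genes were split, with 13 of 29 higher and 11 lower (median 0.24, or 0.01 with only the groups compared in the fit). Their summed level was nevertheless 823 to 939 CPM against 4648 to 4918 CPM, because Ifitm1, at 283, 241 and 237 against 3398, 3571 and 3408 CPM (log2 -3.77, SE 0.222, adjusted p = 1.55e-09), took most of it in the receptor cells. Iigp1, an immunity-related GTPase, had no counts in CSF3R_ONLY and 1.63, 1.82 and 1.18 CPM in RUNX1-ETO_FIRST, at least 8.87-fold higher. The signal transducer Stat2 (log2 0.24, adjusted p = 0.141) did not pass. Of 36 cytokine and growth factor receptors 15 were higher and 15 lower, with the decoy receptor Il1r2 at 17.3, 16.5 and 17.3 against 196, 192 and 182 CPM (log2 -3.48, SE 0.119, adjusted p = 3.37e-12) and the shared chain Csf2rb not past the test (log2 0.26, adjusted p = 0.153).

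Adhesion genes changed in both directions. Of 30 integrin and adhesion genes 12 were higher and 9 lower. The myeloid integrin Itgam (CD11b) was at 9.704, 9.79 and 12.2 against 89.3, 89.4 and 79.9 CPM (log2 -3.03, SE 0.178, adjusted p = 1.44e-09) and the adhesion molecule Ncam1 at 1.51, 2.42 and 2.09 against 23.5, 22.7 and 25.6 CPM (log2 -3.57, SE 0.182, adjusted p = 2.67e-10), while the collagen-binding integrin Itga2 was at 3.25, 6.27 and 3.89 against 0.3501, 0.637 and 0.404 CPM (log2 3.25, adjusted p = 1.33e-05). Of 21 junction and cytoskeleton genes 9 were higher and 5 lower. Tjp1, a tight junction scaffold, was at 73.5, 104 and 103 against 0.292, 0.926 and 0.288 CPM (log2 7.52, SE 0.3001, adjusted p = 1.64e-10), or 8.30 without CSF3R_ONLY replicate 2, which held most of the receptor counts.

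Matrix genes had 13 higher and 6 lower of 28 (median 0.54, 0.67 to 1.09 when a CSF3R_ONLY library was left out). The metalloproteinase Adamts9 had no counts in CSF3R_ONLY and 8.75, 11.7 and 10.7 CPM in RUNX1-ETO_FIRST, at least 59.5-fold higher, and the secreted Angptl2 was at 21.9, 21.7 and 20.6 against 0.525, 0.116 and 0.7498 CPM (log2 5.51, adjusted p = 2.28e-10). Of 20 plexins, neuropilins and semaphorins, which guide cell movement, 10 were higher and 5 lower. The receptor Plxnb2 was at 32.9, 38.5 and 40.1 against 0.233, 0.174 and 0.288 CPM (log2 7.28, SE 0.308, adjusted p = 3.35e-11), the plexin-domain protein Plxdc2 at 68.8, 68.1 and 69.02 against 0.7001, 1.04 and 0.577 CPM (log2 6.46, SE 0.194, adjusted p = 1.13e-12) and Neo1, neogenin, at 14.3, 17.5 and 18.3 against 0.0583, 0.289 and 0.404 CPM (log2 6.02, SE 0.277, adjusted p = 8.47e-11). These 3 rose from at most 1.04 CPM in a receptor library while Plxnc1 fell, and Plxnd1 did not pass (log2 -0.03, adjusted p = 0.89).

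Genes of the cell cycle were slightly lower. Of 33 mitosis genes 0 were higher and 26 lower (median -0.42), and of 42 replication and G1 to S genes 4 were higher and 24 lower (median -0.26). The kinase Aurkb was at 111, 109 and 104 against 164, 167 and 186 CPM (log2 -0.68, adjusted p = 4.49e-06), the mitotic transcription factor Foxm1 at 118 ± 5.85 against 187 ± 6.18 CPM (log2 -0.66, adjusted p = 0.000202), the kinesin Kif23 at 54.1 ± 2.83 against 86.2 ± 2.16 CPM (log2 -0.67, adjusted p = 2.59e-06) and the ribonucleotide reductase subunit Rrm2 at 189, 195 and 184 against 366, 371 and 367 CPM (log2 -0.96, SE 0.0617, adjusted p = 4.41e-09). E2f2, an activator of S phase genes, fell further, at 32.03, 36.9 and 39.9 against 158, 171 and 163 CPM (log2 -2.18, SE 0.116, adjusted p = 4.68e-10). Ccnd2, cyclin D2, was higher, at 53.6, 62.2 and 62.9 against 17.4, 17.7 and 17.9 CPM (log2 1.75, SE 0.106, adjusted p = 2.02e-09), and its partner kinase Cdk6 did not pass (log2 0.15, adjusted p = 0.229). All tested mitosis genes differed by less than 2-fold. Of 33 ribosome biogenesis genes 9 were higher and 1 lower (30.3% called, against 39.6% of all genes). The number higher was 4 without CSF3R_ONLY replicate 1 or 2, 5 without RUNX1-ETO_FIRST replicate 1, 15 with only the groups compared in the fit, 18 with limma-voom and 19 without the 4 libraries poor in long transcripts. In the last of these 7163 of all 13214 genes tested were called, so the list's share was then no longer below that of all genes. Fbl, fibrillarin, was at 126 ± 8.21 against 96.8 ± 0.697 CPM (log2 0.38, adjusted p = 0.00961).

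Metabolic and stress genes moved in both directions, with 39.6% of all genes called. Glycolysis and hypoxia genes had 12 higher and 5 lower of 30 (56.7% called), cholesterol and fatty acid synthesis genes 9 and 4 of 30 (43.3%), and genes of unfolded protein and amino acid stress 10 and 5 of 31 (48.4%). Of the cholesterol and fatty acid genes 2 were lower without CSF3R_ONLY replicate 1 or without RUNX1-ETO_FIRST replicate 1 or 3, while 17 were higher and 8 lower with limma-voom, 17 and 7 without the 4 libraries poor in long transcripts, and 14 higher with only the groups compared. Of the unfolded protein genes 3 were lower without CSF3R_ONLY replicate 1 and 8 without the 4 libraries. The hypoxia-induced carbonic anhydrase Car9 was at 26.8 ± 1.01 against 12.4 ± 1.29 CPM (log2 1.12, adjusted p = 4.26e-06), the elongase Elovl6 at 117 ± 13.1 against 59.97 ± 3.13 CPM (log2 0.97, adjusted p = 3.46e-07) and the stress kinase-like Trib3 at 15.7 ± 1.76 against 9.22 ± 0.826 CPM (log2 0.77, adjusted p = 8.63e-05), whereas Gapdh did not pass (log2 -0.04, adjusted p = 0.836). Lysosome genes had 9 higher and 12 lower of 32 (65.6%), with the galactosidase Glb1 at 384 ± 15.4 against 179 ± 7.74 CPM (log2 1.10, adjusted p = 4.45e-09). Arginine and polyamine genes had 4 and 4 of 18 (44.4%), among them Nos2 and Arg1 in opposite directions.

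Genes of the p53 response had 7 higher and 7 lower of 22, with the death receptor Fas lower at 2.3, 1.54 and 0.959 against 5.08, 5.67 and 5.88 CPM (log2 -1.79, adjusted p = 6.74e-05) and Trp53 itself not past the test (log2 0.22, adjusted p = 0.205). BCL2 family genes, which govern apoptosis, had 5 and 2 of 16. Bnip5 was at 43.7, 52.4 and 49.1 against 0.292, 0.695 and 0.634 CPM (log2 6.46, SE 0.274, adjusted p = 3.37e-11), and the antiapoptotic Bcl2l1 at 113, 102 and 92.99 against 55.8, 54.1 and 52.8 CPM (log2 0.92, SE 0.0876, adjusted p = 4.27e-07). With empty vectors Bnip5 was at 51.8, 66.8 and 44.3 CPM, near the RUNX1-ETO_FIRST level. With the fusion alone it was at 15.7, 18.3 and 13.9 CPM, and with the receptor first at 0.662, 1.06 and 0.303 CPM. Of 8 aldo-keto reductases 4 were higher and 0 lower. Akr1c12 was at 35.8, 32.8 and 31.97 against 0.0583, 0.0579 and 0.0577 CPM, a count ratio of 578 (95% counting interval 197 to 2806), Akr1c13 at 61.9, 50.99 and 50.9 against 6.18, 6.25 and 7.09 CPM (log2 3.07, SE 0.181, adjusted p = 1.57e-09), and Akr1c18, which inactivates progesterone, at 2.58, 2.09 and 3.05 CPM against no counts, at least 14.8-fold higher. No tested mitochondrial transcript passed, and the smallest adjusted p was that of mt-Nd2 (log2 0.59, adjusted p = 0.081). That gene passed with DESeq2 (adjusted p = 0.0494), with limma-voom (adjusted p = 0.0213), without CSF3R_ONLY replicate 1 (adjusted p = 0.0367) and without RUNX1-ETO_FIRST replicate 2 (adjusted p = 0.0498). The median of the list was 0.31, and 0.15 to 0.51 when a library was left out, with 3 transcripts higher with limma-voom and 2 without CSF3R_ONLY replicate 1. The plot of all lists sets these medians side by side.

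**Figure D4:**
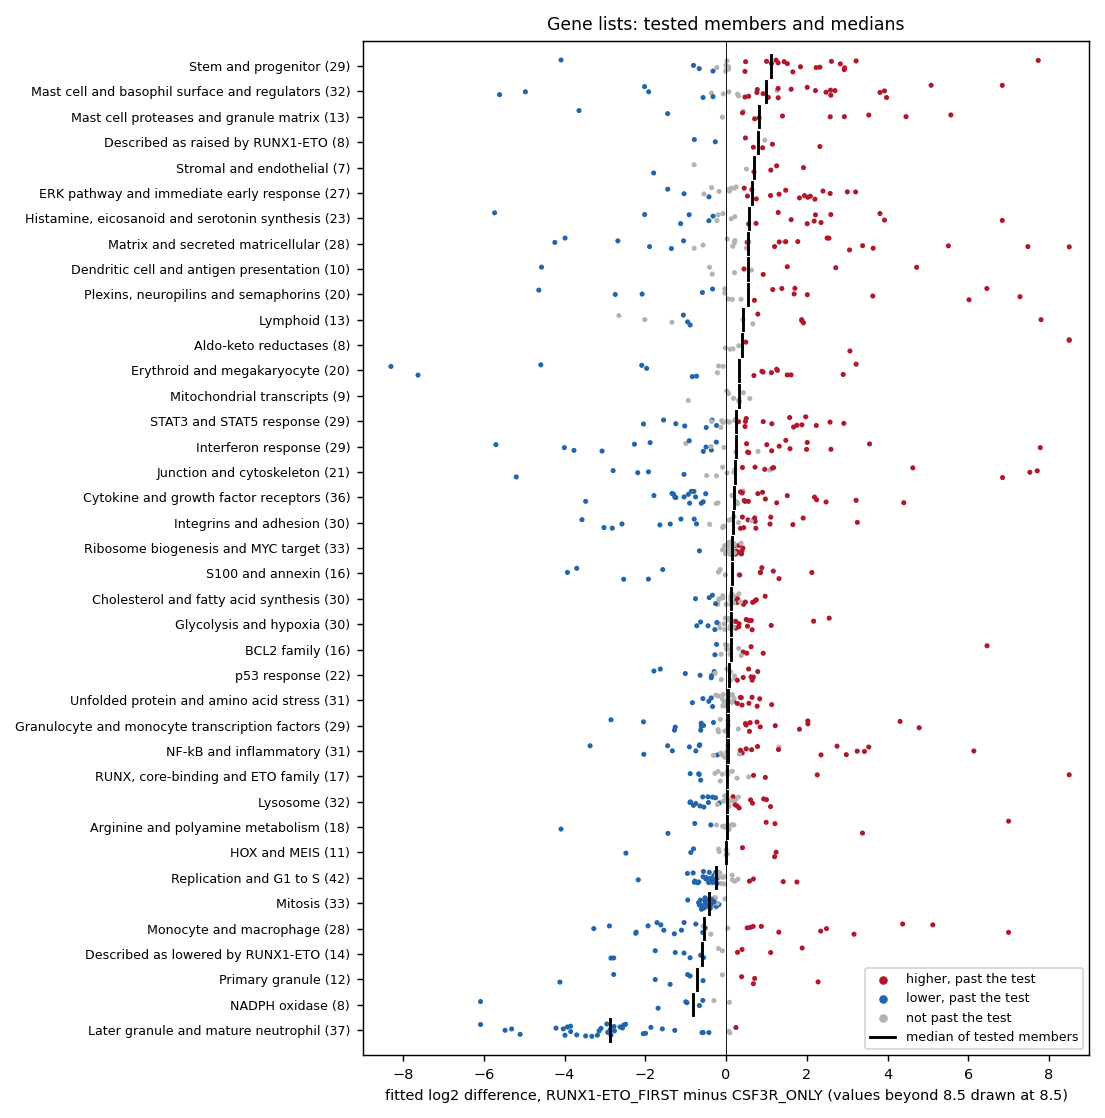
Fitted log2 differences, RUNX1-ETO_FIRST minus CSF3R_ONLY, of the tested members of 39 gene lists (number tested in brackets), red where called higher, blue where called lower and grey where not past the test, with a bar at each median. The later granule and mature neutrophil list has the lowest median, -2.88, and the stem and progenitor list the highest, 1.12.

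The effect of the fusion was also measured without the receptor, as RUNX1-ETO_ONLY minus EMPTY, in libraries of other groups. The same fit of all 15 libraries gave both differences, with a common filter, scaling and estimate of the spread. On the receptor background the fusion cannot be told apart from the order and history of introduction, so effect means the difference between the groups. There 5117 genes (39%) were called. Of the 2625 genes higher here 1661 (63.3%, or 61% of those higher there) were higher in both, and of the 2571 lower here 1375 (53.5%, or 57.5% of those lower there) were lower in both. Another 249 genes were called in opposite directions. The test of the difference between both effects called 2078 genes (15.8%), 842 (6.42%) with a more positive effect in cells with the receptor and 1236 (9.42%) with a more negative one. Of the 37 later granule genes 30 were called in that test. Without the receptor 11 of these rose and 15 fell (median -0.30), beside 20.8% and 18.2% of all genes.

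Cybb differed by -0.86 with the fusion alone and by -6.08 on the receptor background (difference -5.23, SE 0.259, adjusted p = 2.57e-09). S100a8 differed by -0.39 and by -3.93 (difference -3.54, SE 0.318, adjusted p = 1.33e-06). Cebpe, in contrast, fell by 2.89 and fell by 2.85 (difference 0.04, SE 0.186, adjusted p = 0.93), and Thbs1 fell by 4.74 and fell by 4.24 (difference 0.49, SE 0.252, adjusted p = 0.221). Cd34 rose by 2.29 and by 2.32 (difference 0.03, SE 0.0978, adjusted p = 0.89). For Cebpe, Thbs1 and Cd34 the difference did not pass, which does not show that the effects are equal. For Thbs1 it passed without EMPTY replicate 3 (difference 0.73, adjusted p = 0.00658), with limma-voom (0.73, adjusted p = 0.000326) and without the 4 libraries poor in long transcripts (0.84, adjusted p = 5.28e-11).

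**Figure D5:**
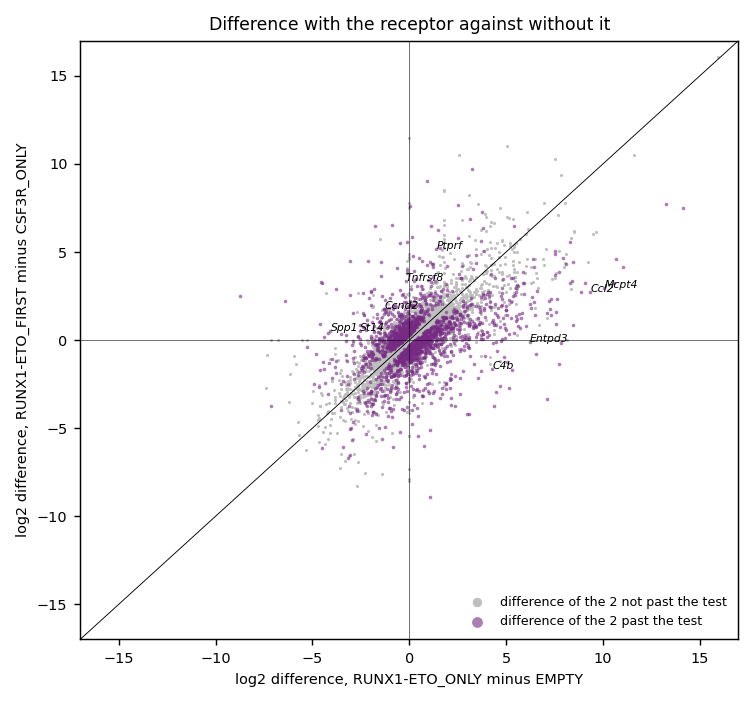
Each point is a gene, with the log2 difference of RUNX1-ETO_ONLY minus EMPTY on the horizontal axis and of RUNX1-ETO_FIRST minus CSF3R_ONLY on the vertical axis, and the diagonal marks equal effects. Purple marks the 2078 genes past the test of the difference between both, and 9 of the genes named for it are labelled, such as Tnfrsf8 above the diagonal and Entpd3 near 0 on the vertical axis.

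The order of the alleles was examined for the genes named, as RUNX1-ETO_FIRST minus CSF3R_FIRST, a comparison that shares the RUNX1-ETO_FIRST libraries and calls 2407 genes (18.3%), 7.22% higher and 11.1% lower. Tpsb2 was lower with the fusion first (log2 -1.48, SE 0.1296, adjusted p = 1.34e-06), and so were Tpsab1 (log2 -1.27, adjusted p = 1.54e-06) and Neo1 (log2 -2.19, adjusted p = 1.39e-07), although all 3 were higher than with the receptor alone. The falls of Cybb (log2 -1.07, adjusted p = 0.00329), Ngp (log2 -0.80, adjusted p = 0.00121), S100a8 (log2 -1.47, adjusted p = 0.000275), Prg2 (log2 -1.95, adjusted p = 1.17e-05) and Nos2 (log2 -1.28, adjusted p = 1.69e-05) went further with the fusion first. Bnip5 (log2 6.14, SE 0.266, adjusted p = 1.58e-09), Akr1c12 (log2 5.65, SE 0.195, adjusted p = 1.74e-10), Plxdc2 (log2 2.47, adjusted p = 1.58e-08) and Fam20a (log2 1.28, adjusted p = 7.75e-07) were higher with the fusion first. For Bnip5 the EMPTY libraries, at 51.8, 66.8 and 44.3 CPM, lay near those with the fusion first. Cd34 (log2 0.06, adjusted p = 0.627), Clec12a (log2 0.03, adjusted p = 0.93), Thbs1 (log2 0.24, adjusted p = 0.412), Krt80 (log2 -0.11, adjusted p = 0.238) and Ptprf (log2 0.40, adjusted p = 0.201) did not pass, which does not show that their levels are equal. Without the 4 libraries poor in long transcripts Ptprf (adjusted p = 6.77e-05), Thbs1 (adjusted p = 0.000444) and Krt80 (adjusted p = 0.0164) passed, and with limma-voom Ptprf (adjusted p = 0.00367) and Thbs1 (adjusted p = 0.0447).

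Several of the changed genes are neighbours, in loci chosen after their values were seen. On chromosome 14, 55941451 to 56262260, 10 genes of the mast cell protease and granzyme cluster were tested, of which 5 were higher and 2 lower. The chymases Cma1 (log2 1.40), Cma2 (log2 2.32) and Mcpt4 rose, Mcpt1 (log2 -1.45, adjusted p = 0.000973, or 0.144 with DESeq2) and Gzmb fell, and Ctsg between them did not pass, so neighbours in 1 cluster moved in opposite directions. On chromosome 17, 25343245 to 25374442, all 3 tested tryptases were higher, and on chromosome 13, 4132615 to 4279433, all 3 tested Akr1c genes. On chromosome 7, 140954837 to 141017924, all 5 tested genes of the Ifitm cluster were lower. Over whole chromosomes the medians lay between -0.07 and 0.05, and the share called between 34.1% and 43.6%. Paralogs in these clusters can share reads, so the values of single members are less certain.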

How the data were processed

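Raw read counts per gene symbol for 15 libraries were deposited by the authors in 1 table. Per the submitters' processing notes, Trimmomatic, STAR, DESeq2 and the build mm10 were used, whereas no source used here gives the counting program, annotation or strand setting. Counts without a symbol (0.0179% to 0.0305% per library) were left out. The 15 libraries were fitted together in edgeR 4.0.16 (R 4.3.3) with TMM factors, 1 mean for each of 5 groups (10 residual df), the filterByExpr filter and the robust quasi-likelihood test, and p-values were adjusted over 13123 genes. A gene with no counts in CSF3R_ONLY is given against a floor of 3 counts per library, and ratios from 1 to 3 counts have an exact 95% interval, both of which cover counting error only. Gene positions are those of GENCODE M21, with 12799 tested genes matched. DESeq2 1.42.0, limma 3.58.1, other scaling factors, filters, sample sets, a replicate block and left-out libraries were tried as alternatives. The genes named are those of the introduced alleles, the 15 largest rises and falls past the test without overlap and at a mean log2 CPM over 3, and members of each list with the largest changes or, among those not past the test, the highest levels. Some genes that this rule names are not reported here. The genes and lists were chosen with earlier results of these data known.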

Additional observations from a re-analysis of the deposited data

Results flagged for a closer look

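The difference between cells with and without the fusion was compared with and without the receptor. The contrast was (RUNX1-ETO_FIRST minus CSF3R_ONLY) minus (RUNX1-ETO_ONLY minus EMPTY), and 2078 genes differed between both settings (edgeR's quasi-likelihood test, adjusted p). It also carries the order and history of introduction, which cannot be told apart from the fusion here. Among the largest differences in each direction, of genes that meet the rule for named genes, 9 are given with the mean CPM in EMPTY, RUNX1-ETO_ONLY, CSF3R_ONLY and RUNX1-ETO_FIRST.

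More positive with the receptor were Spp1, osteopontin (means of 16.6, 0.981, 9.10 and 13.1 CPM, difference 4.59), Ptprf (15.3, 40.3, 1.51 and 55.1 CPM, difference 3.79), Tnfrsf8, the receptor CD30 (4.87, 4.34, 5.06 and 52.5 CPM, difference 3.54), the membrane protease St14 (21.2, 3.67, 9.45 and 13.6 CPM, difference 3.06) and Ccnd2 (160.0, 65.1, 17.7 and 59.6 CPM, difference 3.05). For Tnfrsf8 only RUNX1-ETO_FIRST stood apart among these 4 groups. St14 did not pass between RUNX1-ETO_FIRST and CSF3R_ONLY without CSF3R_ONLY replicate 1 (adjusted p = 0.0704).

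More negative with the receptor were Mcpt4 (0.04, 48.5, 32.3 and 246 CPM, difference -7.15), the chemokine Ccl2 (0.02, 16.8, 4.70 and 31.6 CPM, difference -6.59), the ectonucleotidase Entpd3 (0.132, 10.4, 44.7 and 41.0 CPM, difference -6.35) and the complement gene C4b (0.405, 8.22, 23.6 and 7.55 CPM, difference -5.93). These genes were near 0 in EMPTY, so the fitted differences depend on the prior count and are no bound.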

How the results depend on the processing

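The count of genes that differed, 5196, was 5183 with RLE factors, 5210 with library sizes alone, 4938 without a filter, 5190 with the stricter filter, 5412 with DESeq2, 7470 with limma-voom, 6303 with only the groups compared and 7163 when 4 libraries poor in long transcripts were dropped. It was 4465 to 4689 when 1 library was left out. No gene called in both fits changed its direction under these alternatives. Of 2415 values of the main difference for named genes under 15 alternatives, 2337 kept direction and call, 66 passed newly, 4 no longer passed and 8 changed direction. Ctsg, Cdk6, Csf2rb, Myb, Nfe2, Stat2 and Trp53 did not pass in the main fit but passed with limma-voom and without the 4 libraries. Hoxb4 passed newly with limma-voom, and Etv6 without the 4 libraries. Between RUNX1-ETO_FIRST and CSF3R_ONLY libraries of the same number the correlations of deviations were -0.00291, 0.00489 and -0.0251. The other groups were not examined in this way. The correlation with transcript length was -0.517, -0.365 and -0.302 in replicate 3 of EMPTY, RUNX1-ETO_ONLY and CSF3R_FIRST. It was 0.141 and 0.0318 in replicate 3 of RUNX1-ETO_FIRST and CSF3R_ONLY. A batch shared by replicate number was not tested. With the replicate block 5371 genes were called, of which 5112 were shared, with Cd63, Ly6c2, Rac2 and Vcan among those newly past the test.

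Both with limma-voom and without the 4 libraries, 7 replication genes were higher (4 as reported), 7 genes of the RUNX and ETO families lower (4) and 3 dendritic cell genes lower (1). Without the 4 libraries 7 genes of the RUNX and ETO families were higher (4).

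The order comparison (2407 genes, 948 higher and 1459 lower) gave 1842 higher with library sizes alone, which shifted the median of all genes by 0.10. It gave 4269 genes (1887 and 2382) with limma-voom and 4449 (1793 and 2656) without the 4 libraries. Leaving out a library gave 510 to 814 higher, the lowest without RUNX1-ETO_FIRST replicate 3, and 526 without CSF3R_FIRST replicate 3. The difference with and without the receptor (2078, 842 and 1236) gave 3490 (1493 and 1997) with limma-voom and 3466 (1557 and 1909) without the 4 libraries. The cause was not tested.

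The values that changed direction did not pass in either fit. With library sizes alone the receptor difference was -0.0283 for Cd34 and -0.0289 for Cebpe. With limma-voom it was -0.17 for Cebpe, and the main difference was -0.00499 for Chil3 and 0.0104 for Plxnd1. Without the 4 libraries it was -0.14 for Cebpe, with 0.0367 for Plxnd1 and an order value of -0.00163 for Cd34. With a library left out the receptor difference ranged from -0.0104 to 0.0987 for Cd34 and from -0.14 to 0.15 for Cebpe. The main difference ranged from -0.0169 to 0.0883 for Erg, from -0.0319 to 0.0602 for Tlr4 and from -0.0740 to 0.0392 for gene Plxnd1, and the order value from -0.12 to 0.19 for Clec12a. Depth limits the genes at or near 0 counts in 1 group, such as Arg1, Hbb-bs and Car1.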
